A study of Eucalyptus grandis and Eucalyptus globulus with 10 samples.

Results

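In differentiating xylem, 180 of 21413 features on a Eucalyptus array were at least 2-fold higher in each of 2 E. globulus clones than in each of 2 E. grandis clones. A feature is the set of probes for 1 predicted transcript, and every one of the 180 was read by 9 probe pairs, printed once per block on an array of 2 blocks. The members were chosen on RMA expression values, in which the brightness of a feature's probes is summarised to 1 number. For each feature log2 values were averaged over the 2 blocks and then over the 2 trees of a clone, and E. globulus minus E. grandis had to be 1 log2 unit or more in each of the 4 pairings of clones. The xylem levels therefore chose the members, and the members' own difference between the species is given as a description from which nothing is read. The species are tested only in pairings of clones that a choice of features did not use. Leaf played no part in the choice. The series text also mentions human negative control genes, which are not marked in the files and were not removed from the 21413 features.

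The arrays held 5 groups of 2 trees. These were xylem of E. globulus clone A, E. globulus clone B, E. grandis clone A and E. grandis clone B, and blades of mature leaves of E. grandis clone A. All trees were 4 years old and grew in the field at 1 site, and no group carried a treatment. The clones of a species were unrelated, clone letters are not shared between species, and the ramets of a clone are separate trees of 1 genotype, so p-values here measure the spread between trees of a genotype. Each species is represented by 2 genotypes, and no leaf of E. globulus was measured.

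Differentiating xylem is the tissue under the bark in which cells cut off by the cambium enlarge, lay down thick walls of cellulose, xylan and lignin, and mostly die to leave wood. Both species are grown for pulp, and E. globulus is known for denser wood and a higher pulp yield than E. grandis. Mature leaf blade is rich in photosynthetic cells and was taken here without its central vein. The feature IDs matched 0 entries of a list of E. grandis genes, so no gene name, role or sequence is given, and the tissue labels were not checked against marker genes. In tissue samples like these, fewer cells of a type and less RNA per cell cannot be told apart.

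A deposited value table of the series named its samples differently from the array files that are used here. Only 1 of its 10 columns held the values of the array file of the same sample, 9 held those of another sample, and all 10 ran in ascending order of array number. In the array files, the 2 ramets of a group correlated across all features at r = 0.906 to 0.981. With the table's names the values ran from 0.659 to 0.978, and the lowest were 0.659 and 0.748 for E. globulus clones B and A. With the table's names 693 features met the rule, of which 0 were among the 180, so every value below depends on which naming is right. The array files' own names were used, and whether they are right was not tested.

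On the 4 E. globulus xylem arrays the median level of the 180 members was 10.22, 9.79, 9.64 and 9.64 log2 units (clone A ramets 1 and 2, then clone B ramets 1 and 2). In E. grandis leaf it was 7.76 and 7.73, against 7.86, 7.63, 7.96 and 8.05 on the E. grandis xylem arrays, in the same order of clones and ramets. The leaf medians thus lay among those of E. grandis xylem. Over all features the array medians were alike, between 7.78 and 7.87. The members therefore stood near the middle of the arrays in both E. grandis tissues and above it in E. globulus. At most 24 of the 180 lay below the array's median on any E. globulus array, and 83 to 95 did so on each E. grandis array.

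**Figure D1:**
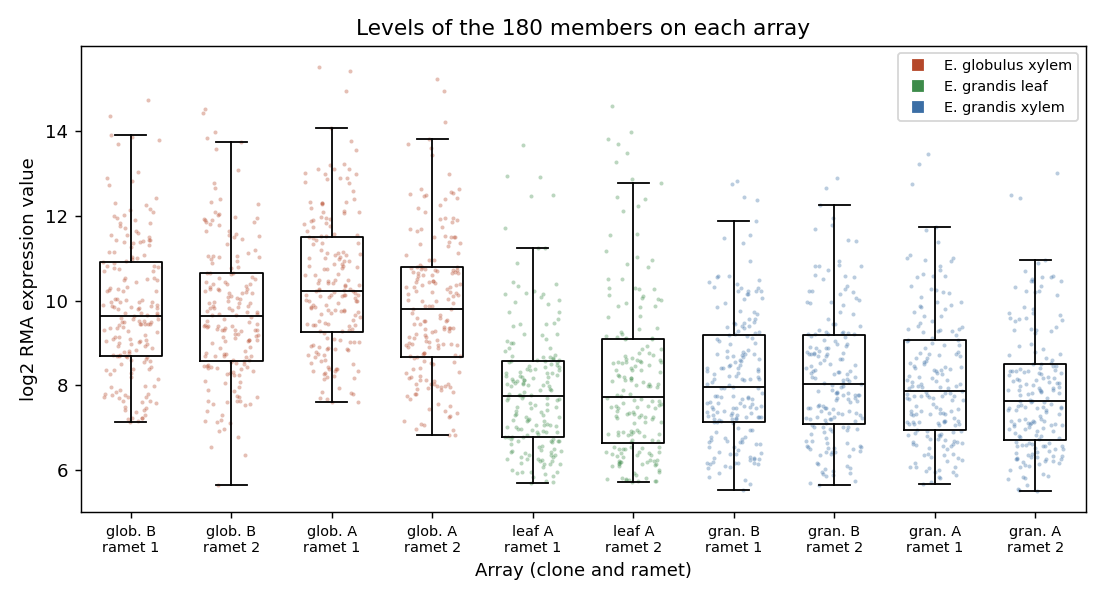
Log2 RMA expression value (vertical axis) of the 180 members on each of the 10 arrays (horizontal axis); points are members, boxes span the quartiles with the median as a line, and whiskers reach to the farthest member within 1.5 box lengths. The 4 E. globulus medians lie between 9.64 and 10.22, and the 6 E. grandis medians between 7.63 and 8.05.

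The size of the difference varied with the clones compared. Over the members the median difference was 2.03 log2 units for E. globulus clone A minus E. grandis clone A and 1.73 for E. globulus clone A minus E. grandis clone B. It was 1.60 for E. globulus clone B minus E. grandis clone A and 1.30 for E. globulus clone B minus E. grandis clone B. The last pairing was the smallest of the 4 for 106 of the 180 members, so it set the limit of the choice most often. Taken alone, the pairings held 1629, 960, 924 and 416 features at 1 log2 unit or more, in the order just given.

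Most members lay close to the limit. The smallest of the 4 differences was under 1.5 log2 units for 139 members, at least 2 for 18 and at least 3 for 6. Just inside the limit were LYPTUS00S00018716 at 1.0005 and LYPTUS00S00021058 at 1.0056 log2 units, and just outside were LYPTUS00S00004590 at 0.9995 and LYPTUS00S00007701 at 0.9990. With 1.5 log2 units asked for in place of 1, 41 features were left.

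Single arrays differed less evenly than clone means. In 177 of the 180 members all 4 E. globulus arrays were above all 4 E. grandis xylem arrays, as they were in 8.56% of all features, a count that largely follows from the rule. A difference of 1 log2 unit in all 16 pairings of single arrays was met by 68 members, and in at least 12 of the 16 by 170. A single pairing of arrays held 137 to 180 members at that difference. These counts also follow in part from the rule, and the shares of all features that met them are not given. The 3 members whose arrays overlapped, named after their values were seen, were LYPTUS00S00000467, LYPTUS00S00009119 and LYPTUS00S00016875. Limma with clone as a random block called 172 members higher in E. globulus, among 2.30% of all features. This count repeats the rule. It was 54 without E. globulus clone A ramet 2, and 72 when the 4 clone means were the values tested.

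LYPTUS00S00016538 and LYPTUS00S00005063 had the largest smallest-of-4 differences, 4.24 and 4.10 log2 units. The first had log2 values of 12.26, 11.29, 11.70 and 11.56 in E. globulus xylem and 8.19 and 6.86 in E. grandis leaf, against 6.96, 7.81, 7.002 and 7.31 in E. grandis xylem. LYPTUS00S00005063 had 12.09, 11.32, 11.31 and 11.05 in E. globulus xylem and 7.67 and 7.66 in leaf, against 7.17, 6.97, 6.39 and 6.69 in E. grandis xylem. Both lay at 8.19 log2 units or below on all 6 E. grandis arrays, and at 11.05 or above on every E. globulus array. Neither passed the test between leaf and xylem of clone A (limma adjusted p 0.899 for LYPTUS00S00016538 and 0.201 for LYPTUS00S00005063).

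The members with the highest signal in E. globulus xylem differed in what E. grandis showed. LYPTUS00S00009225 had 15.50, 15.21, 14.71 and 14.51 log2 units in E. globulus xylem and 7.16 and 8.17 in leaf, against 10.96, 10.46, 12.36 and 12.65 in E. grandis xylem. LYPTUS00S00000099 had 15.40, 14.93, 13.91 and 13.96 in E. globulus xylem and 12.49 and 13.69 in leaf, against 13.21, 12.49, 12.82 and 12.88 in E. grandis xylem. The first was thus far lower in leaf than in any xylem, while the second was bright in all 5 groups. Brightness also depends on the probes, so these levels do not rank the transcripts by abundance.

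**Figure D2:**
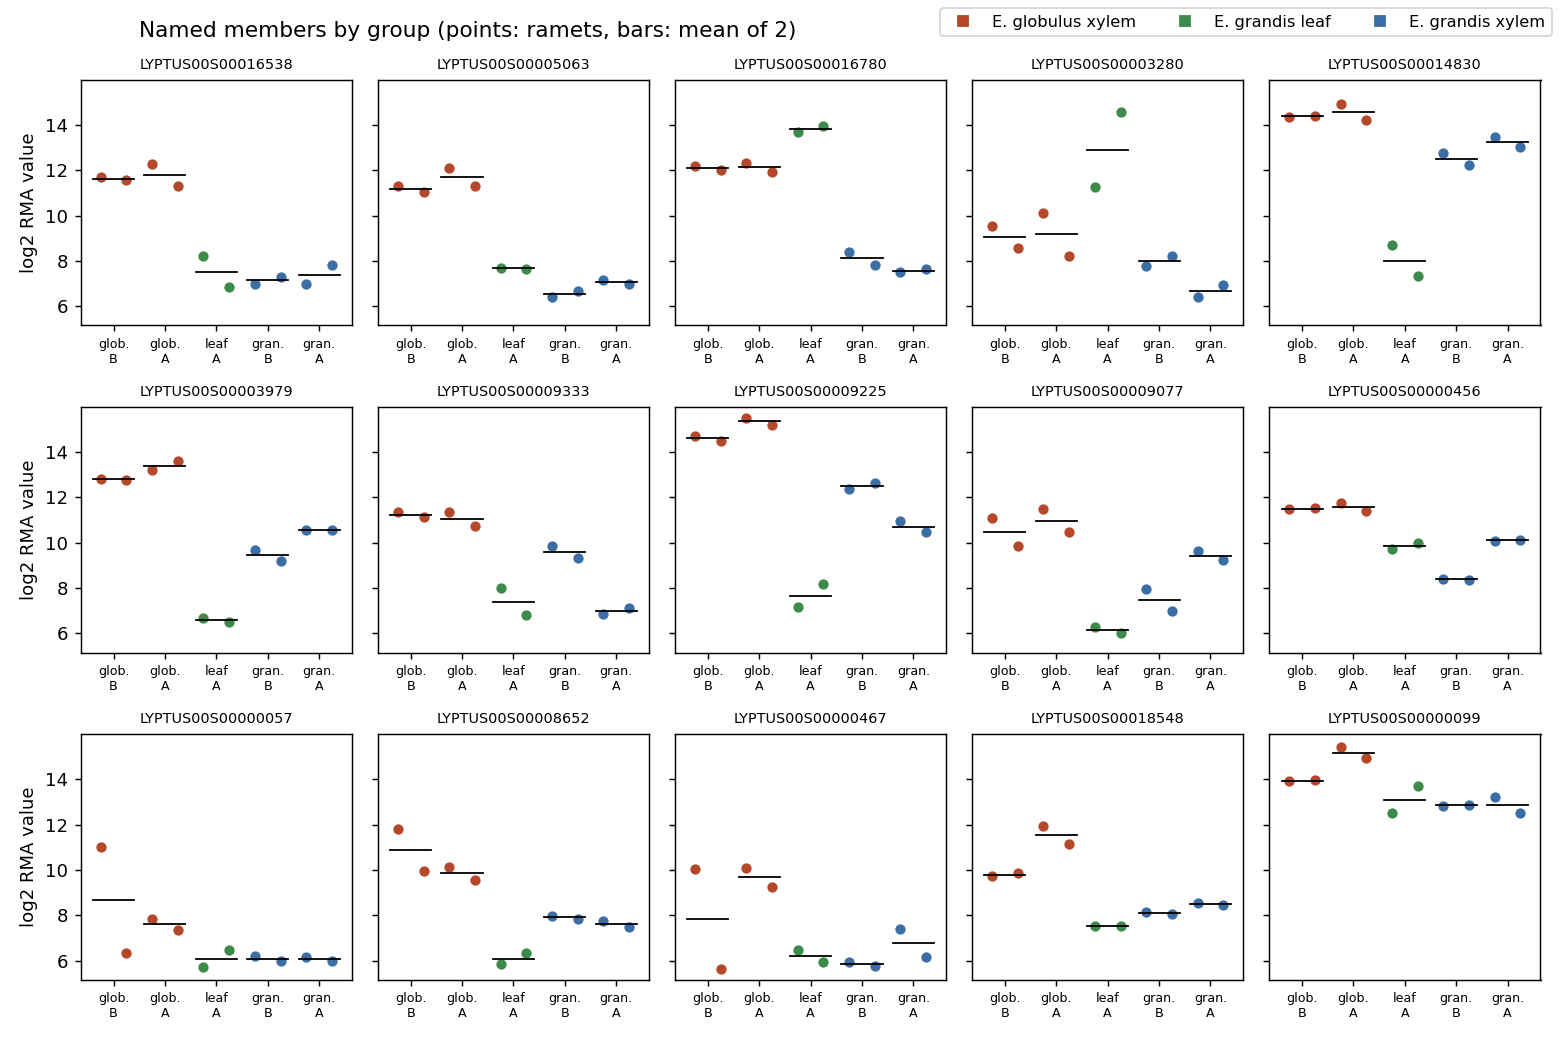
Log2 RMA expression value (vertical axis) of 15 named members in E. globulus xylem of clones B and A, E. grandis leaf of clone A, and E. grandis xylem of clones B and A (horizontal axis); points are ramets and bars are the mean of 2. All 15 are higher in E. globulus than in E. grandis xylem by group mean, while leaf means range from 6.07 for LYPTUS00S00000057 to 13.82 for LYPTUS00S00016780.

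Whether the difference carried over to other trees was measured by choosing features on 1 pairing of clones and reading them in the opposite pairing, which shares no tree and no genotype with it. In the opposite pairing the chosen features reached 1 log2 unit several times as often as all features did. Of 1629 features chosen on the clones A of both species, 222 (13.6%) reached it between the clones B, against 1.94% of all features. Of 416 chosen on the clones B, the same 222 features (53.4%) reached it between the clones A, against 7.61% of all features. Of 960 chosen on E. globulus clone A and E. grandis clone B, 345 (35.9%) reached it between E. globulus clone B and E. grandis clone A, against 4.32%. Of 924 chosen on that last pairing, the same 345 features (37.3%) reached it in the first, against 4.48%. Opposite choices thus share the features that reached the limit and are not separate results. All 180 members are among these features in every choice, since the rule asks for 1 log2 unit in all 4 pairings. A choice on large differences can favour features that vary, and the shares reaching 1 log2 unit in the other direction are not given. In the opposite pairing 52%, 46.1%, 58.2% and 43.2% of all features were higher in E. globulus by any amount. For the chosen features these shares were 74.6%, 88%, 78.9% and 89.5%, in the order of the choices above.

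In the test, limma with 1 mean per group over the 10 arrays and Benjamini-Hochberg adjustment over all features called 58, 184, 255 and 193 of these features higher in E. globulus in the opposite pairing, in the order just given. These were 3.56%, 44.2%, 26.6% and 20.9% of the features chosen, against 0.462%, 6.25%, 2.80% and 1.64% of all features. It called 3, 5, 10 and 4 of them lower. The shares of all features called lower are not given, so nothing is read from these counts. The array numbers fall into a lower and a higher series, and all E. globulus arrays lie in the lower. With the series as a block the shares called higher were 1.28%, 35%, 17.1% and 7.11%, against 0.149%, 3.27%, 1.37% and 0.523% of all features. With 1 xylem array left out the share of calls was as low as 0.675% for the clones A (without E. grandis clone B ramet 2), where 0.0794% of all features were called. It was as low as 17.5% for the clones B and 2.60% for E. globulus clone A with E. grandis clone B (both without E. grandis clone A ramet 2), and 3.79% for E. globulus clone B with E. grandis clone A (without E. grandis clone B ramet 2). In each of the 8 fits that left out an array, all 4 shares were above that of all features. In each of these lowest cases the share of all features called was also lower than with all 10 arrays. Without E. globulus clone A ramet 2, the share of features chosen on E. globulus clone A and E. grandis clone B that reached 1 log2 unit was 21.3% in place of 35.9%. A transcript difference and a difference in how well probes match the 2 species cannot be told apart by these pairings, and the source species of the probe sequences is not given in the sources used here.

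**Figure D3:**
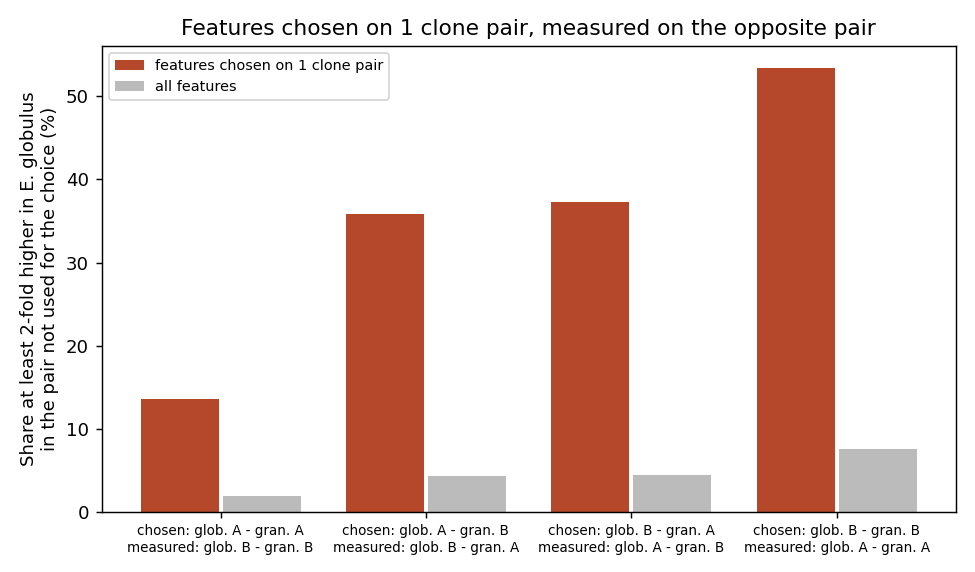
Share of features at least 2-fold higher in E. globulus (vertical axis, percent) in the pairing of clones not used for the choice, for features chosen on 1 pairing and for all 21413 features; the pairings used to choose and to measure are named under the bars. The chosen features lie between 13.6% and 53.4%, and all features between 1.94% and 7.61%. Choices on opposite pairings share the features that reached the limit.

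In leaf of clone A, 25 of the 180 rose and 31 fell against xylem of the same trees, and 124 did not pass the test (limma over 10 arrays, adjusted p under 0.05). These are 13.9% and 17.2% of the members, where 11.8% of all features were higher and 13.3% lower in leaf. Both shares lay a little above those of all features, and the members' median difference was -0.02 log2 units against 0.04 over all features. Both leaf arrays lie in the higher array number series. With the series as a block 19 members rose and 24 fell, and the median was -0.13 against 0.03 over all features. The shares of all features called in that fit, and in those without a xylem ramet below, are not given, so no excess is read. The count of members that rose was 16 without xylem ramet 2, and the count that fell was 20 without xylem ramet 1.

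The rule asked for low values in clone A xylem, which were also part of this comparison. It was therefore repeated for the 323 features that were at least 2-fold higher in both E. globulus clones than in E. grandis clone B alone, which include all 180 members. Of these 42 (13%) were higher and 94 (29.1%) lower in leaf than in clone A xylem, with a median difference of -0.30. Without the limit on clone A xylem, the share that was lower in leaf was thus above the 13.3% of all features, and the share that was higher stayed near 11.8%. These features were still chosen for high E. globulus xylem values. Those that are not members fell short of the limit against clone A xylem. The shares are therefore not free of the choice of features.

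The 25 members that rose in leaf had a median leaf level of 10.10 and a median clone A xylem level of 7.57 log2 units, and their differences ran from 0.99 to 6.25. For 10 of the 25 the leaf mean was above 10 and the clone A xylem mean below 9 log2 units. For 13 of the 25 the mean in E. grandis leaf was above the mean in E. globulus xylem.

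LYPTUS00S00016780 was among the 10. It had 13.67 and 13.97 log2 units in leaf, against 7.51 and 7.62 in clone A xylem, and 8.41 and 7.82 in clone B xylem. In E. globulus xylem it had 12.31, 11.94, 12.16 and 12.01. The leaf minus xylem difference in clone A was 6.25 (SE 0.287, limma adjusted p 1.04e-07). All E. globulus xylem and E. grandis leaf arrays were thus above all 4 E. grandis xylem arrays.

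LYPTUS00S00003280 had 11.24 and 14.58 in leaf, against 6.39 and 6.94 in clone A xylem, a difference of 6.25 (SE 0.872, limma adjusted p 0.000214). In the other xylem groups it had 10.12, 8.21, 9.52 and 8.59 in E. globulus, against 7.76 and 8.20 in E. grandis clone B. Its leaf ramets lay far apart, yet both were above all 8 xylem arrays. The lowest E. globulus array and the highest E. grandis xylem array were nearly level.

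The 31 members that fell in leaf had a median leaf level of 7.53 and a median clone A xylem level of 9.43, with differences from -5.22 to -0.85, and 11 of them were above 10 in clone A xylem, whose values are part of the call. LYPTUS00S00014830 had 8.68 and 7.33 in leaf, against 13.46 and 13.00 in clone A xylem, a difference of -5.22 (SE 0.422, limma adjusted p 3.32e-06). In the other xylem groups it had 14.92, 14.21, 14.35 and 14.41 in E. globulus, against 12.75 and 12.24 in E. grandis clone B. Every xylem array was thus far above leaf, and the E. globulus arrays were the highest.

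LYPTUS00S00003979 had 6.69 and 6.50 in leaf, against 10.55 and 10.55 in clone A xylem, a difference of -3.95 (SE 0.272, limma adjusted p 1.13e-06). It had 13.18, 13.59, 12.82 and 12.78 in E. globulus xylem, against 9.68 and 9.21 in E. grandis clone B xylem. The groups formed steps without overlap, with E. globulus xylem on top and leaf at the bottom.

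**Figure D4:**
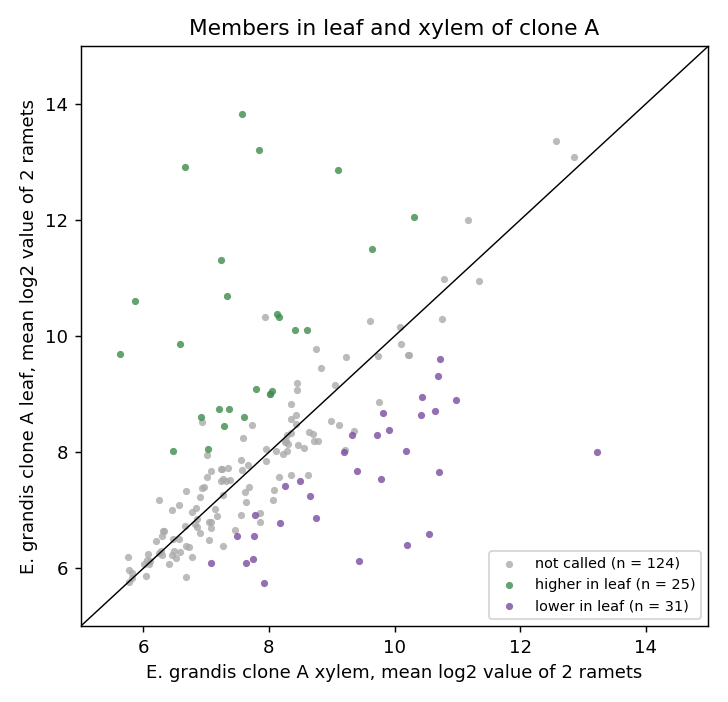
Mean log2 RMA expression value of 2 ramets in E. grandis clone A leaf (vertical axis) and in clone A xylem (horizontal axis) for the 180 members; colours give the limma call and the line marks equal values. The 25 members called higher in leaf lie above the line, the 31 called lower lie below it, and the 124 others lie around it.

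Leaf and xylem were also compared tree by tree. At least 2-fold differences in both trees of clone A were found for 16 members higher in leaf and 20 lower, 8.89% and 11.1% of the members, against 8.04% and 9.48% of all features. Set against all 4 E. grandis xylem arrays, both leaf arrays were above them for 28 members (15.6%) and below them for 55 (30.6%), against 18.5% and 19.9% of all features. The leaf mean was below the E. grandis xylem mean for 106 members, 58.9% of them, against 49.9% of all features. By these counts the members lay below E. grandis xylem in leaf more often than all features did, and the rule used the same xylem arrays. Against E. globulus xylem, both leaf arrays were below all 4 arrays for 151 members and above all 4 for 8, and these counts (23.3% and 20% of all features) follow in part from the choice of members with high E. globulus values. Leaf ramets also lay farther apart than ramets of E. grandis xylem, with a median distance of 0.51 log2 units over the members and 0.52 over all features. E. grandis xylem had 0.30 and 0.22 in clone A, and 0.25 and 0.27 in clone B. The ramets of E. globulus clone A were as far apart as those of leaf over the members, at 0.51, with 0.45 over all features.

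**Figure D5:**
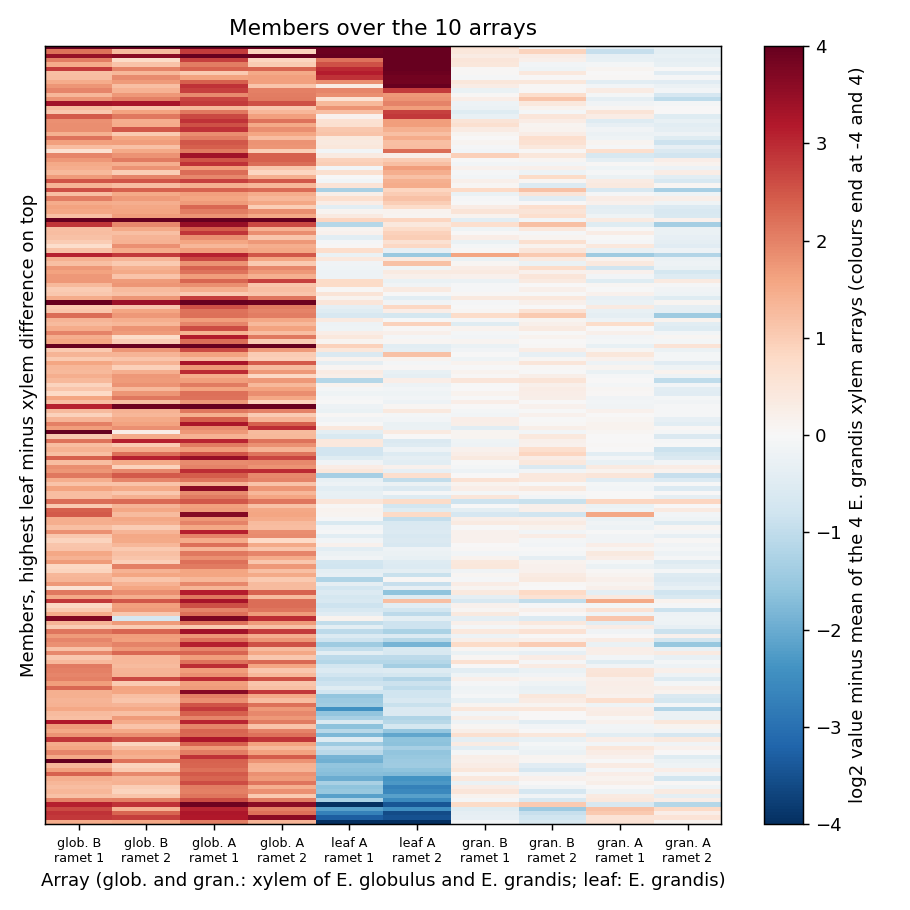
Log2 value of each of the 180 members (rows, ordered by leaf minus xylem in clone A) on each of the 10 arrays (columns), as the difference from the mean of the 4 E. grandis xylem arrays; colours end at -4 and 4. E. globulus columns are above that mean for nearly all members, while leaf is above it at the top and below it at the bottom. By their leaf mean 106 members are below it (58.9%, against 49.9% of all features).

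Few members were called between the E. grandis clones in xylem. With clone B set against clone A, limma called 4 of the 180 higher (2.22%) and 1 lower (0.556%), where 0.626% and 0.705% of all features were called. In either direction it called 2.78% of the members, against 1.33% of all features. The rule used the same arrays, so these shares are a description only. LYPTUS00S00009333 had 9.84 and 9.30 in clone B, against 6.84 and 7.10 in clone A, a difference of 2.60 (SE 0.392, limma adjusted p 0.0101). LYPTUS00S00009225 had the clone B and clone A xylem values given above, a difference of 1.79 (SE 0.347, limma adjusted p 0.0303). In both members the clones did not overlap. That clone B lay below E. globulus follows from the rule.

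The other members higher in clone B, named after their values were seen, were LYPTUS00S00009096 and LYPTUS00S00002989, with differences of 1.79 and 1.77. LYPTUS00S00000456 was the member lower in clone B, with 8.41 and 8.37, against 10.09 and 10.12 in clone A, a difference of -1.72 (SE 0.254, limma adjusted p 0.00967). LYPTUS00S00009077 had 7.95 and 6.98 in clone B, against 9.63 and 9.23 in clone A, and did not pass the test (limma adjusted p 0.0727). It passed with block 1 only (limma adjusted p 0.0461) and with ramet number as a block (0.0174), and over the other alternatives the adjusted p was 0.0544 to 0.602. The calls rest on all 4 arrays. Without any 1 of them 0 to 2 members were called higher and 0 lower, and LYPTUS00S00009333, LYPTUS00S00009225 and LYPTUS00S00000456 lost their call each time (limma adjusted p 0.0805 to 0.353). Quantile normalisation gave 7 higher and 1 lower, and the array number series as a block 2 and 1. The shares of all features called in these alternatives are not given, so nothing is read from the counts.

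Between the E. globulus clones limma called 0 of the 180 members, with 34 (18.9%) at an unadjusted p under 0.05 against 5.67% of all features. The rule used these same arrays, so this share and the clone differences below are a description only. Of all 21413 features 5 (0.0234%) were called, 0.014% higher and 0.00934% lower in clone B. The members leaned to lower values in clone B, with a median difference from clone A of -0.37 log2 units against 0.05 over all features, and 152 of the 180 were lower. Most of this lean depended on 1 array. Without clone A ramet 1 the median was -0.06 against 0.03 over all features, and 101 of the 180 were lower.

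The largest positive difference belonged to LYPTUS00S00000057, with 11.02 and 6.35 in clone B, against 7.83 and 7.36 in clone A, and the next to LYPTUS00S00008652, with 11.82 and 9.95 in clone B, against 10.14 and 9.55 in clone A. The most negative belonged to LYPTUS00S00000467, with 10.02 and 5.65 in clone B, against 10.08 and 9.26 in clone A, and to LYPTUS00S00018548, with 9.71 and 9.87, against 11.93 and 11.12. In the first and the third, trees of 1 genotype lay over 4 log2 units apart, and their clone difference turned sign when a clone B array was left out. LYPTUS00S00000057 was called higher in clone B without clone B ramet 2 (3.42, limma adjusted p 0.0298), and LYPTUS00S00000467 lower without clone B ramet 1 (-4.02, limma adjusted p 0.0415). The E. globulus level of LYPTUS00S00000467 on clone B ramet 2 was no higher than in E. grandis xylem, which had 7.40, 6.14, 5.94 and 5.76.

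The distance between trees of a genotype was read from the same xylem arrays that chose the members, and a choice on large differences can favour features that vary, so it is a description only. A distance between ramets of over 1 log2 unit was found for 15.6% of the members in E. globulus clone A, 6.11% in E. globulus clone B and 7.78% in E. grandis clone A, against 8.68%, 1.31% and 1.09% of all features. In E. grandis clone B the shares were 1.11% of the members and 0.934% of all features. In E. globulus clone A, ramet 1 was above ramet 2 by a median of 0.51 over the members and -0.01 over all features. That array had the widest spread of all, with an interquartile range over all features of 2.84 log2 units, where the other xylem arrays had 2.41 to 2.60. Leaving it out left 159 features that met the rule, 152 of them members. Quantile normalisation, which gives all arrays the same spread, left 181, of which 170 were members, and the median difference between the E. globulus clones was then -0.27 in place of -0.37.

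Over the members the ramets of E. globulus clone A correlated at r = 0.965 and those of clone B at 0.913, while clone A ramet 2 had 0.929 and 0.952 with clone B ramets 1 and 2. For E. grandis xylem the ramets had 0.958 (clone A) and 0.969 (clone B). These values are across features that share their arrays and describe the arrays only. With the 6 arrays of the lower array number series, which held 1 tree of each E. grandis clone and all E. globulus trees, 227 features met the rule and 161 of them were members. The higher series held no E. globulus array.

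The members were last set beside the mirror set, 191 features at least 2-fold higher in each E. grandis clone than in each E. globulus clone. In leaf 25 of the 180 members were higher and 31 lower than in clone A xylem, with a median difference of -0.02. Of the mirror set 16 were higher and 107 lower, with a median difference of -1.27. For the mirror set the rule asks for high clone A xylem values and for the members for low ones, so part of this contrast is set by the choice of features, and the difference between the sets was not tested.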

How the data were processed

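Total RNA of 10 tissue samples was labelled with Cy3 and hybridised to 1-colour NimbleGen arrays, 1 array per sample, per the labels' protocols. The authors deposited linear intensities, as 1 RMA expression value per feature and block. Per the submitters' processing notes the summary was RMA, and no source used here says which settings it had or which arrays were normalised together. The number of probe pairs and a score named as a standard error were also deposited per the file headers, and the score was not used.

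From these, log2 values were taken and the 2 blocks averaged, with no further normalisation and no filter on dim features. The value table of the series, whose columns equalled the mean of the blocks of an array times 10000 (within 0.001 expression units after division), was an alternative. Its column medians (ramet 1, then ramet 2) were 2373949.5 and 2312826.5 under the name of E. globulus clone A, with 2212800.5 and 2233937.5 under E. globulus clone B. Under E. grandis names they were 2310113 and 2239949.5 (xylem, clone A), 2260218 and 2253241 (xylem, clone B) and 2366804 and 2316820.5 (leaf). The values are linear and not centred, and the samples named by its columns disagree with the array files.

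Tests used limma 3.58.1 in R 4.3.3 with Benjamini-Hochberg adjustment over all 21413 features and a threshold of 0.05. Leaf against xylem and clone against clone came from 1 mean per group over 10 arrays, with 5 residual degrees of freedom. The species difference was fitted over the 8 arrays of xylem, where clone was a random block (estimated correlation 0.219). The fits were tested on simulated data. Precision is limited by 2 arrays per group. Per the labels, leaf and xylem of clone A with 1 ramet number are from 1 tree, and the ramet differences in leaf and xylem correlated across features at r = -0.354 (-0.277 over the members).

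The members, lists and comparisons were chosen with earlier results of these data known. Named were the 2 members with the largest smallest-of-4 difference, the 2 of highest E. globulus signal, the 2 highest and 2 lowest in leaf against xylem among those called, the 2 highest and 2 lowest between clones of each species, and the 2 nearest the limit on each side. Alternatives were quantile normalisation, single blocks, blocks for ramet or array series, a filter on dim features, the value table and leaving out each array. Marker genes could not be looked up, since the IDs have no names here.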

Additional observations from a re-analysis of the deposited data

How the results depend on the processing

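The number of features that met the rule was 163 to 181 with quantile normalisation, either block alone or linear means of blocks, and 156 to 207 without any 1 xylem array. It was 41 with 1.5 log2 units and 693 with the value table's names. With those names 0 members were called higher and 0 lower in leaf, 0 higher and 6 lower between E. grandis clones, and 0 between the species. The held-out shares of calls were then 0 in all 4 choices, while 51.6% (chosen on the clones A) and 85.2% (chosen on E. globulus clone A with E. grandis clone B) reached 1 log2 unit. Named members that turned sign with those names were LYPTUS00S00016780 (-0.036) and LYPTUS00S00003280 (-0.10) in leaf, LYPTUS00S00009333 (-2.59) and LYPTUS00S00009225 (-3.95) between E. grandis clones, and LYPTUS00S00000467 (0.56) and LYPTUS00S00018548 (0.25) between E. globulus clones. The table differs from the array files in which array stands under which sample. By the array files, its leaf and E. grandis clone A xylem columns held xylem of E. globulus clones B and A. Its E. grandis clone B columns held 1 xylem array of each E. grandis clone. Its columns for each E. globulus clone held 1 leaf and 1 xylem array of E. grandis. The values with those names thus compare other samples and are not the same differences processed otherwise.

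Between E. grandis clones, members called higher in clone B numbered 7 with quantile normalisation, 2 with block 2 only and 2 with the array number series as a block, and members called lower numbered 2 with block 1 only. With the series as a block the held-out shares of calls were 1.28% for the clones A, 17.1% for E. globulus clone A with E. grandis clone B and 7.11% for E. globulus clone B with E. grandis clone A. The share lower in leaf was 29.1% for features chosen without clone A xylem. The species contrast called 72 members with clone means as the unit. The shares of all features called are not given beside these counts of members, and the cause of these shifts was not tested.

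With ramet number as a replicate block, 22 members were higher and 30 lower in leaf, 4 higher and 3 lower in E. grandis clone B, 0 were called between E. globulus clones, and 155 between the species. The held-out shares of calls were then 3.31% for the clones A and 43.3% for the clones B, against 0.416% and 6.16% of all features. For E. globulus clone A with E. grandis clone B they were 25.5% against 2.66%. E. globulus clone B with E. grandis clone A had 19.2% against 1.58%. Over the 4 clone A arrays alone, pairing leaf and xylem by tree gave 22 higher and 21 lower, against 18 and 23 without pairing. Between clones the trees share only a ramet number. For the counts of members in these fits the shares of all features called are not given, so nothing is read from them.

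With single arrays left out, members called ranged from 16 to 36 higher and 20 to 28 lower in leaf, 0 to 2 higher and 0 to 0 lower in E. grandis clone B, 0 to 1 higher and 0 to 1 lower in E. globulus clone B, and 54 to 177 between the species. The held-out shares of calls ranged from 0.675% to 4.94% (clones A), 2.60% to 40.3% (E. globulus clone A, E. grandis clone B), 3.79% to 19.5% (E. globulus clone B, E. grandis clone A) and 17.5% to 42.8% (clones B). The shares that reached 1 log2 unit ranged, in that order, from 10.6% to 16.3%, 21.3% to 51.5%, 29.6% to 45.0% and 45.3% to 59.9%. The E. globulus clone difference ranged from -1.24 to 3.42 for LYPTUS00S00000057 and from -4.02 to 0.35 for LYPTUS00S00000467. The shares of all features called in these fits are not given here, so the counts and shares of calls are a description only. Having 2 arrays per group limits the precision of single calls.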
